A study of Mus musculus with 22 samples.

Results

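The 10 genes described here encode GTPases that interferon-gamma induces in mouse cells: the guanylate-binding proteins Gbp2, Gbp3, Gbp5, Gbp7 and Gbp9, and the immunity-related GTPases Igtp, Irgm1, Irgm2, Iigp1 and Tgtp1. They were taken by symbol from the Ensembl genes of the deposited tables, where all 10 had a row among 55487 genes. Their RNA was measured by sequencing in 22 libraries of spleen cells from wild-type male C57BL/6 mice. Primary monocytes received vehicle (replicates 1 to 6) or ox-LDL (replicates 7 to 11), which is LDL in oxidised form, used at 50 µg/mL during 24 hours to turn myeloid cells into lipid-laden foam cells. Macrophages, which were made from such monocytes in culture with the phorbol ester PMA (200 ng/mL for 5 days), were given vehicle (replicates A to E) or the same ox-LDL (replicates G to L). Separate mice or cultures are not named for the libraries within a group, so p-values measure only the spread between these libraries, which may be technical. The labels name no treatment with interferon-gamma in any group.

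Interferon-gamma binds a receptor made of Ifngr1 and Ifngr2, and the kinases Jak1 and Jak2 relay the signal to the nucleus. Target genes carry the gamma-activated site (GAS) and the interferon-stimulated response element (ISRE), the second of which is bound by IRF factors. The GTPases induced in this way act on the membranes around intracellular parasites and bacteria. Iigp1 (also Irga6) and Tgtp1 (Irgb6) are effector IRGs that load onto the vacuole, and Igtp (Irgm3), Irgm1 and Irgm2 are regulators that sit on the cell's own membranes and hold the effectors in check. The guanylate-binding proteins are larger, coat the same vacuoles and bacterial surfaces, and promote inflammasome activity, the last shown for Gbp2 and Gbp5 in mouse macrophages.

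The members lie in few places. In the deposited GRCm38 annotation, Gbp5 (ENSMUSG00000105504), Gbp7 (ENSMUSG00000040253), Gbp3 (ENSMUSG00000028268) and Gbp2 (ENSMUSG00000028270) follow each other on the plus strand of chromosome 3, with starts at 142493978, 142530342, 142560026 and 142620602. Gbp9 (ENSMUSG00000029298) spans 105077630 to 105139539 on the minus strand of chromosome 5. On chromosome 11, Irgm1 (ENSMUSG00000046879, 48861968 to 48871683) and Tgtp1 (ENSMUSG00000078922, 48985327 to 48994172) lie on the minus strand, and Igtp (ENSMUSG00000078853, 58199556 to 58207591) and Irgm2 (ENSMUSG00000069874, 58199618 to 58222782) on the plus strand. The Irgm2 row starts inside Igtp, and these genes share 162 exon bases on the same strand, where reads could not be assigned from the tables. The same holds for 637 of the 5614 exon bases of Gbp7, shared with Gm43802. Gbp9 likewise shares 60 exon bases with Gbp8 and 60 with Gbp4. Tgtp1 has a near-identical neighbour: 81.2% of the 50-base words of its GENCODE transcripts also occur in other genes, mainly Tgtp2, so its counts are uncertain. The same share was 12.7% for Gbp7, 11.8% for Igtp, 8.05% for Gbp9 and 7.77% for Irgm2, and from 0.31% to 3.75% for the other 5 members.

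Promoter letters were taken from RefSeq (GRCm38.p6) for the 8 members with an entry, Gbp2, Gbp3, Gbp5, Gbp7, Igtp, Irgm1, Irgm2 and Tgtp1. Gbp9 and Iigp1 had none. Each of the 8 held an ISRE core, GAAANNGAAA on either strand, within the 250 bases before a start site, while 2.98% of all 32851 mouse windows of that length held one. The second start site of Gbp3 held none. A GAS, TTCNNNGAA, which reads the same on both strands, lay upstream of 5 members (Gbp5, Gbp7, Igtp, Irgm2 and Tgtp1) and in 7.02% of all windows. The stretches around these motifs are shown because they carry the ISRE cores that the members have in common, and the GAS where it lies near. The GAS of Gbp5 lie outside its stretch, starting 245 and 52 bases before the start site. They read 5′ to 3′ along the gene, with ISRE cores and GAS in capitals:
Gbp2: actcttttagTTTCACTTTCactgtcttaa
Gbp3: gtcaggacacagTTTCAGTTTCTATTTCc
Gbp5: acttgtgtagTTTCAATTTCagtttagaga
Gbp7: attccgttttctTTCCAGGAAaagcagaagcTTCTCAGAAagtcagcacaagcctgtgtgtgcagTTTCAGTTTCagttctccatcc
Irgm1: gtttcaaGAAATAGAAACCGAAActgattc
Igtp: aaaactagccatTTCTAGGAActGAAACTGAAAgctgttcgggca
Irgm2: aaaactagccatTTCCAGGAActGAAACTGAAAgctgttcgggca
Tgtp1: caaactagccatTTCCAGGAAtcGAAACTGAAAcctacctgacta

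In the 4 guanylate-binding protein members the ISRE core lay on the strand opposite to the gene, and in the 4 IRG members on the same strand. The stretches are chr3:142620594-142620623 (Gbp2), chr3:142559987-142560015 (Gbp3), chr3:142496759-142496788 (Gbp5) and chr3:142530218-142530304 (Gbp7) on the plus strand. Those of the IRG genes are chr11:48871428-48871457 (Irgm1) and chr11:48992302-48992346 (Tgtp1) on the minus strand, and chr11:58199499-58199543 (Igtp) and chr11:58214890-58214934 (Irgm2) on the plus strand. The start sites used by RefSeq and by the deposited annotation differ for some members, and 22 of the 30 bases shown for Gbp2 and all 30 shown for Irgm1 lie in exons of the deposited annotation. In Igtp, Irgm2 and Tgtp1 the GAS was followed, after 2 bases, by the ISRE core. This arrangement, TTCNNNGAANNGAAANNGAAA on either strand, occurred in 5 of the 32851 windows (0.0152%): those of these 3 members, of Tgtp2 and of Gm12185, whose exons overlap Tgtp1. The stretches of Igtp and Irgm2 differed at 1 of 45 bases, and that of Tgtp1 differed from Irgm2 at 11. In Irgm1 and Gbp3 a pair of ISRE cores overlapped. Of the other genes of both families with a RefSeq entry, Gbp2b, Tgtp2 and Gm12250 also held an ISRE core. It lay on the same strand in Tgtp2 and on the opposite strand in Gbp2b and Gm12250. As Gm12250 is an IRG gene, the strand did not follow the family beyond the members. Ifi47, Gm5431, Irgq, 9930111J21Rik1 and 9930111J21Rik2 held neither motif. These matches describe the letters and not binding, which was not measured.

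**Figure D1:**
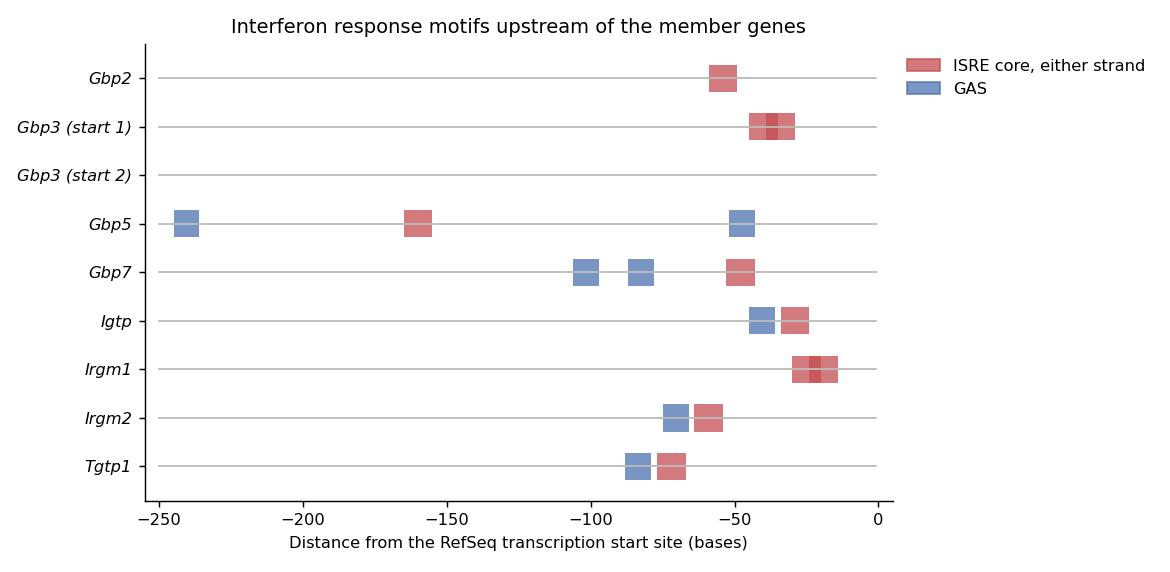
Positions of ISRE cores (red) and GAS (blue) in the 250 bases before the RefSeq start sites of 8 members, with distance from the start site in bases on the x axis and 2 start sites for Gbp3. In Igtp, Irgm2 and Tgtp1 the GAS stands beside the ISRE core, and the second Gbp3 start has neither motif.

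Total counts ran from 37330389 to 50257111 per library. Summed monocyte and macrophage markers (12 genes, such as Csf1r, Cd68 and Adgre1) had a median of 8012 CPM (read counts scaled to library size with TMM factors) in vehicle monocytes and 54178 in vehicle macrophages. The monocyte libraries also held markers of other cells, and the labels name no sort. Their neutrophil markers summed to 30067 to 45801 CPM in replicates 5, 6, 10 and 11 and to 4666 to 5779 in the other 7 libraries. Dendritic cell markers summed to 7368 to 12449 CPM in monocyte libraries and to at most 21.6 in macrophage libraries, and B cell markers to 605 to 2292 against at most 32.4. Erythroid markers were low in monocyte replicates 1, 2 and 7 (453 to 878 CPM, against 6607 to 14506 in the others). Among macrophages, a principal component analysis used the 500 genes that varied most after subtraction of each group's mean, with the listed genes left out. The first component held 74.9% of that remaining variance. Its sign set replicates C, D, I, J and, least clearly, L apart from A, B, E, G, H and K. In bulk RNA, fewer cells of a type and less RNA per cell cannot be told apart.

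Levels of different genes were compared in TPM, a transcript abundance that corrects for gene length and library depth. In vehicle monocytes Gbp2 stood first at 259 ± 69.6 TPM (SD, n = 6). Gbp3 followed at 44.9 ± 9.62 TPM, and its range did not meet that of Gbp2. Irgm1 (21.6 ± 4.25), Igtp (20.8 ± 3.07), Gbp9 (20.4 ± 7.00), Gbp5 (20.1 ± 3.98) and Irgm2 (16.2 ± 3.03) came next in TPM, and each overlapped its neighbour in that order. Gbp7 (2.76 ± 0.789), Tgtp1 (1.85 ± 0.924) and Iigp1 (0.351 ± 0.371) were lowest. In ox-LDL monocytes Gbp2 was again first (216 ± 68.5 TPM, n = 5) and apart from the next, and the 9 others overlapped their neighbours.

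In vehicle macrophages the order differed, and the 3 regulators led. Irgm2 reached 26.9 ± 3.08 TPM (SD, n = 5), apart from Igtp at 20.95 ± 1.72, which overlapped Irgm1 at 18.2 ± 1.81. Gbp2 (7.47 ± 2.28) and Gbp3 (7.43 ± 1.76) were next with overlapping ranges, followed by Gbp9 (4.27 ± 0.477), Gbp7 (2.57 ± 1.11) and Gbp5 (0.561 ± 0.255). Tgtp1 and Iigp1 stood at 0.0961 ± 0.0576 and 0.0730 ± 0.0438 TPM. In ox-LDL macrophages the first 8 members kept this order, from Irgm2 at 19.99 ± 0.961 TPM (n = 6) down to Gbp5 at 0.420 ± 0.214.

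The make-up of the summed TPM of all 10 members therefore differed between the cell types. The 5 guanylate-binding proteins made up 84.9 ± 1.21% of it in vehicle monocytes and 83.9 ± 2.54% in ox-LDL monocytes, with 63.0 ± 3.67% and 63.7 ± 2.81% from Gbp2 alone. In macrophages Igtp, Irgm1 and Irgm2 together made up 74.7 ± 4.55% with vehicle and 77.8 ± 2.99% with ox-LDL. The summed level was 408 ± 93.8 TPM in vehicle monocytes, 337 ± 99.7 in ox-LDL monocytes, 88.5 ± 7.27 in vehicle macrophages and 66.0 ± 4.41 in ox-LDL macrophages.

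**Figure D2:**
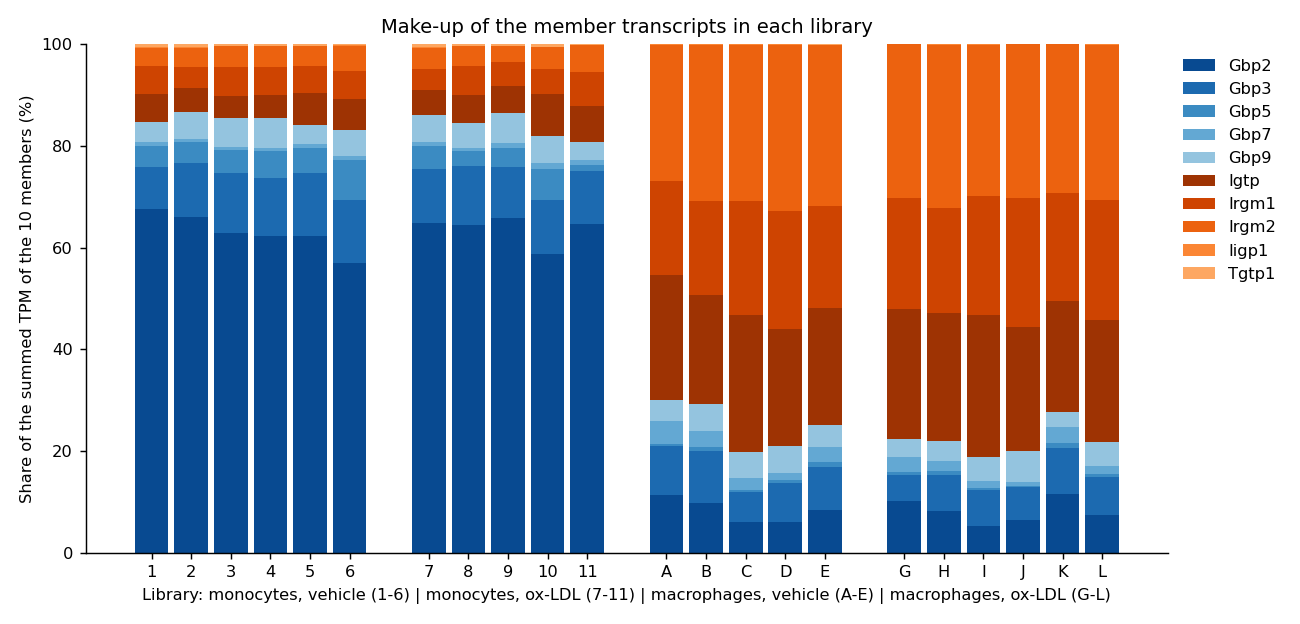
Share of each member in the summed TPM of the 10 members (y axis, %) in each library (x axis), with guanylate-binding proteins in blue and IRGs in orange. Gbp2 fills most of each monocyte bar, and Igtp, Irgm1 and Irgm2 most of each macrophage bar.

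The comparison of macrophages with monocytes asked how the differentiated cells differ, both with vehicle or both with ox-LDL. Every macrophage library had PMA for 5 days and no monocyte library had, so differentiation, PMA and time in culture cannot be told apart. Gbp2, Gbp3, Gbp5 and Gbp9 were lower in macrophages with either treatment, and the regulator Irgm2 was higher. With vehicle, 7 of the 10 members were called lower (adjusted p under 0.05) and 1 higher, and 2 were not called. Of all 16288 genes tested, 35.1% were called lower and 28.5% higher, so most genes differed between these cell types. The median log2 fold change was -2.26 over the members and -0.09 over all genes.

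Gbp2, which promotes the release of bacterial DNA for inflammasome sensing, had between 167 and 274 CPM in the 6 vehicle monocyte libraries (median 233). In the vehicle macrophage libraries A to E it had 10.4, 7.73, 4.24, 4.71 and 7.56 CPM. No macrophage library came near the lowest monocyte library, and the level was 35.1-fold lower (log2 -5.13 ± 0.26 SE, adjusted p = 1.39e-09). Gbp5, a GTPase linked to the NLRP3 inflammasome, fell as far, from 47.7 ± 8.67 CPM (SD, n = 6) to 1.35 ± 0.586 (n = 5), which is 37.5-fold (log2 -5.23 ± 0.28, adjusted p = 2.13e-09). Gbp3 fell 6.20-fold from 52.2 ± 7.15 to 8.89 ± 2.39 CPM (adjusted p = 4.70e-08) and Gbp9 4.89-fold from 36.9 ± 8.97 to 8.00 ± 0.598 (adjusted p = 8.34e-08). The range of each of these 4 genes in macrophages lay below its range in monocytes.

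Gbp7 was the guanylate-binding protein not called with vehicle. It had between 3.95 and 7.01 CPM in monocytes (median 5.58) and 9.36, 5.34, 3.502, 2.40 and 6.09 in macrophages A to E, so the groups overlapped (log2 -0.13 ± 0.30, adjusted p = 0.726), and the sign turned without macrophage replicate C (0.042) or D (0.0693). With ox-LDL it was lower in macrophages (log2 -1.27 ± 0.32, adjusted p = 0.00337), with no overlap between 4.67 to 7.63 CPM in monocytes and 0.986 to 4.48 in macrophages.

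The regulators did not move together between the cell types. Irgm2, which lies on Golgi and vacuole membranes, had 19.3 to 23.7 CPM in vehicle monocytes (median 21.3) and 35.8, 35.4, 31.0, 36.9 and 41.4 in macrophages A to E. All macrophage libraries lay above all monocyte libraries, and the rise was 1.61-fold (log2 0.69 ± 0.10, adjusted p = 4.64e-05). Irgm1, known for its role in mycobacterial defence and autophagy, was 1.23-fold lower (44.5 ± 5.09 against 38.3 ± 3.39 CPM, log2 -0.30 ± 0.11, adjusted p = 0.0283) with overlapping ranges. That call was lost in 5 alternatives, the fit with no filter (adjusted p = 0.207) and those without vehicle monocyte replicate 4 (0.0557) or vehicle macrophage replicate A (0.0793), B (0.0882) or C (0.117). Igtp was at 15.1 ± 1.90 and 15.4 ± 1.80 CPM and was not called (log2 -0.05 ± 0.12, adjusted p = 0.75).

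The effectors among the members, Tgtp1 and Iigp1, were nearly absent from macrophages. Tgtp1 had 1.07 to 3.37 CPM in vehicle monocytes (52 to 165 counts) and 0.0710 to 0.226 CPM in vehicle macrophages (3 to 10 counts), a 19.0-fold difference (log2 -4.25 ± 0.43, adjusted p = 1.15e-06) without overlap. Its neighbour Tgtp2, with which it shares most of its sequence, went the same way (log2 -3.46 ± 0.39, adjusted p = 3.27e-06). Iigp1 (ENSMUSG00000054072, plus strand of chromosome 18 from 60376027 to 60392634) was low throughout, with 1.51, 1.57, 0.500, 0.182, 0 and 0.287 CPM in vehicle monocytes 1 to 6 and 0.0550 to 0.237 in vehicle macrophages. Replicates 1 and 2 were above 1 CPM, 3 and 6 were slightly above the macrophages, and 4 and 5 were not. Its call (log2 -2.23 ± 0.87, adjusted p = 0.0366) was lost in limma voom (adjusted p = 0.408), in 1 fit over all 4 groups (0.0547) and without macrophage replicate A (0.0877), B (0.0814), C (0.0534), D (0.0542) or E (0.0622).

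With ox-LDL in both cell types, 7 of the 9 members tested were called lower in macrophages and 1, Irgm2, higher (log2 0.52 ± 0.10, adjusted p = 3.44e-04). Of 15825 genes, 35.0% were called lower and 30.3% higher. All 5 guanylate-binding proteins were among the lower members, from Gbp2 at a log2 fold change of -5.37 ± 0.24 to Gbp7 at the value above. Igtp was lower too (14.7 ± 1.66 against 11.99 ± 1.105 CPM, log2 -0.35 ± 0.11, adjusted p = 0.0105), a call lost with no filter on low counts (adjusted p = 0.0519). Irgm1 was not called (log2 -0.26 ± 0.11, adjusted p = 0.0538), but was with DESeq2 (0.0262), total counts (0.0224) and RLE factors (0.0313). Tgtp1 had 40 to 146 counts in monocytes and 0 to 2 in macrophages (log2 -6.19 ± 0.52, adjusted p = 2.47e-07). The dendritic, neutrophil, B cell, erythroid and NK and T cell marker lists were lower in macrophages too, the last with 13 of 14 markers called lower with vehicle and 12 of 13 with ox-LDL, and their part in these differences was not tested. Without the 4 monocyte libraries high in neutrophil markers, a choice made after the data were seen, 8 members were called with vehicle and 9 with ox-LDL, as were 10539 of 16291 and 10665 of 16358 genes.

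**Figure D3:**
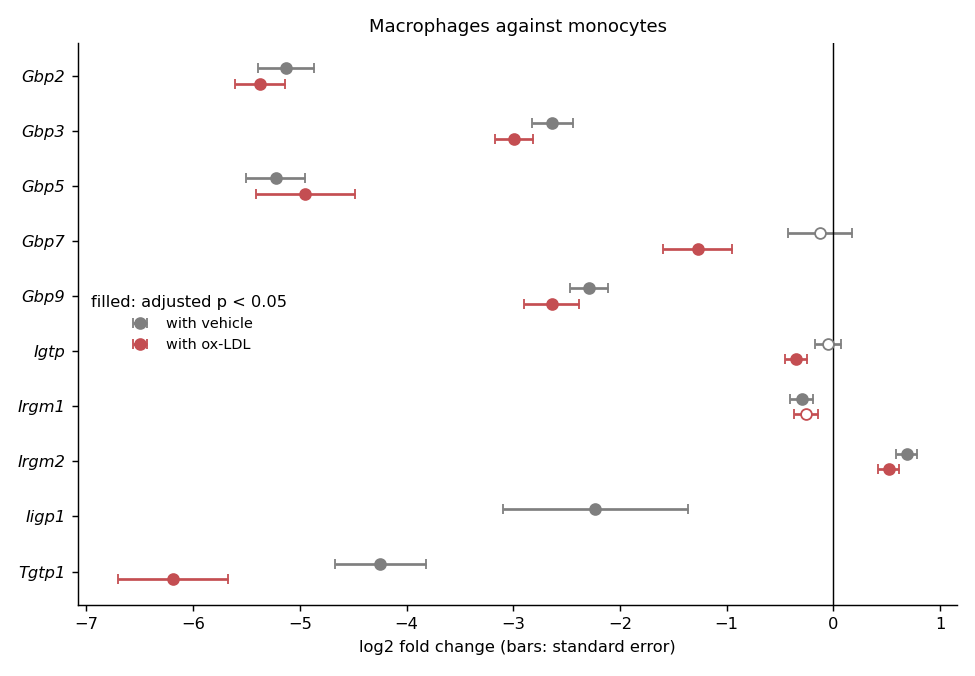
Log2 fold change of macrophages against monocytes (x axis) for each member, with vehicle (grey) and with ox-LDL (red), where bars are standard errors, filled points have an adjusted p under 0.05, and Iigp1 was not tested with ox-LDL. Gbp2, Gbp3, Gbp5, Gbp9 and Tgtp1 lie far to the left and Irgm2 to the right of 0.

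Whether ox-LDL treatment of macrophages went with changes in these genes was asked next. Irgm2 fell, and the 7 other members tested were lower in their mean without passing the test. Irgm2 had 35.8, 35.4, 31.0, 36.9 and 41.4 CPM in vehicle replicates A to E and 25.1, 27.5, 27.6, 26.5, 27.2 and 26.9 CPM in ox-LDL replicates G to L. Every ox-LDL library lay below every vehicle library, and the fall was 1.34-fold (log2 -0.42 ± 0.07, adjusted p = 0.00562). Over 18 alternatives its adjusted p ran from 7.23e-06 to 0.0371 and its log2 fold change from -0.47 to -0.37. Of the 14543 genes tested 200 (1.38%) were called lower and 142 higher, and in 1.84% every ox-LDL library lay below every vehicle library, as in 1 of the 8 members.

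The other regulators were lower in their means by less. Igtp had 13.5 to 18.0 CPM with vehicle (median 14.9) and 11.6, 11.8, 14.2, 11.7, 11.1 and 11.6 CPM in G to L, where only replicate I reached into the vehicle range (log2 -0.36 ± 0.09, adjusted p = 0.0644). Irgm1 averaged 38.3 ± 3.39 CPM over the vehicle libraries and 31.6 ± 2.96 over those given ox-LDL, with a log2 fold change of -0.27 ± 0.08 and an adjusted p of 0.105.

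Among the guanylate-binding proteins none was called, and the groups overlapped in all 5. Gbp7 had 9.36, 5.34, 3.502, 2.40 and 6.09 CPM in A to E and 3.80, 2.71, 1.80, 0.986, 4.48 and 2.25 in G to L, where J was lowest and A highest (log2 -0.997 ± 0.38, adjusted p = 0.225). Gbp3 had 8.89 ± 2.39 and 5.52 ± 1.21 CPM (log2 -0.68 ± 0.19, adjusted p = 0.0984). Gbp9 had 8.00 ± 0.598 and 5.35 ± 1.47 CPM (log2 -0.57 ± 0.16, adjusted p = 0.1). Gbp2 at -0.49 ± 0.25 and Gbp5 at -0.40 ± 0.37 had adjusted p of 0.397 and 0.701. The median log2 fold change was -0.46 over the 8 members tested and 0.00 over all genes.

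Tgtp1 and Iigp1 were too low in macrophages to enter the test. Tgtp1 had 24 counts in all over 5 vehicle libraries and 6 over 6 ox-LDL libraries, of which G and K had 0. Iigp1 had 32 and 25 counts.

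The number of members called in macrophages depended on the fit. DESeq2 called 5 (Gbp3, Gbp9, Igtp, Irgm1 and Irgm2, all lower), and edgeR with total counts called Igtp with Irgm2. A fit with the library sets as a covariate, added after the data were seen, called 5 (Gbp7, Gbp9, Igtp, Irgm1 and Irgm2). Without replicate C, Gbp3 was called (adjusted p = 0.0293), without I, Igtp (0.0347), and without J, Gbp9 (0.0279). Over all genes, DESeq2 called 305 higher and 393 lower, total counts gave 92 and 334, and the fit with library sets 273 and 432, so more genes were called in general with DESeq2 and with the sets. Within the library sets, which have no test, Irgm2 was lower with ox-LDL by 0.33 on the log2 scale in C, D, I, J and L and by 0.49 in the other 6 libraries. All 10 members were lower with ox-LDL in both sets, with median differences of -0.30 and -0.71 log2 units. These include Tgtp1 (-0.66 and -1.61) and Iigp1 (-0.62 and -1.04), which had at most 10 and 12 counts in a macrophage library. The share of all genes lower in both sets was not computed. Gbp7 and Gbp2 followed the sets as well: Gbp7 ranged over 0.986 to 3.502 CPM in the first set and 2.71 to 9.36 in the second, and Gbp2 over 3.28 to 4.71 and 4.84 to 10.4.

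Some markers of other cells also had lower levels in the ox-LDL macrophages. The median summed level was 69.7 CPM with vehicle and 31.7 with ox-LDL for 15 NK and T cell markers, 12.2 and 4.74 for 12 dendritic cell markers, and 24.9 and 13.6 for 10 B cell markers, with overlapping ranges. Neutrophil markers went the other way (44.6 and 74.2), also with overlap, and erythroid markers were at 1.37 and 1.65. Few genes carried these sums. In each macrophage group, 1 of 15 NK and T cell, 2 of 10 B cell and 2 of 12 neutrophil markers averaged at least 1 CPM. Of 12 dendritic cell markers, 5 did with vehicle and 2 with ox-LDL. Ncr1, Gzma, Gzmb and Nkg7, which mark NK and cytotoxic T cells, were at 0 in every macrophage library. The part of such cells in the lower member levels was not tested.

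**Figure D4:**
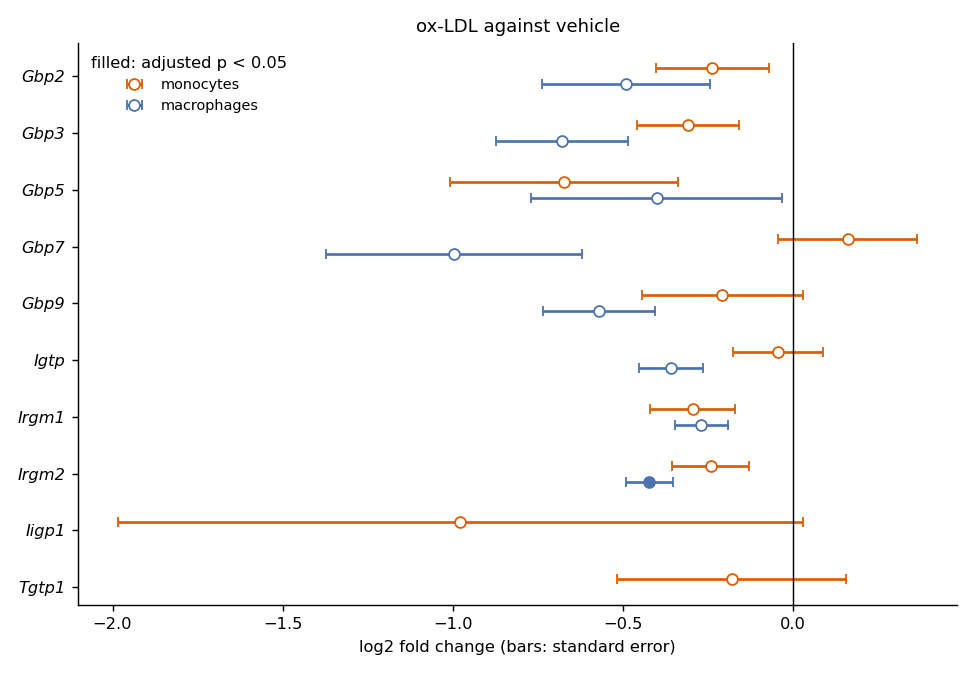
Log2 fold change of ox-LDL against vehicle (x axis) for each member in monocytes (orange) and macrophages (blue), with standard errors. The filled point is the call, Irgm2 in macrophages, and Iigp1 and Tgtp1 were not tested in macrophages.

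In monocytes 0 of the 10 members were called with ox-LDL, against 4 of 16575 genes (0.0241%). Irgm1 had an unadjusted edgeR p under 0.05 with 1717 other genes, and 0 members were called in any alternative fit, DESeq2 and limma voom included, although DESeq2 called 151 genes and 1 fit over all 4 groups 259. Irgm1 had 37.5 to 50.1 CPM with vehicle (median 44.7) and 33.7, 40.7, 41.6, 29.2 and 36.5 CPM in replicates 7 to 11 (log2 -0.29 ± 0.12, adjusted p = 0.43). No member had all ox-LDL libraries below all vehicle libraries, which held for 0.664% of genes.

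Gbp5 had 1 ox-LDL monocyte library far from the rest. It had 41.4, 43.3, 41.0, 55.6, 43.6 and 61.6 CPM in vehicle replicates 1 to 6 and 40.8, 23.5, 37.3, 41.2 and 7.27 CPM in ox-LDL replicates 7 to 11, where 11 stood far below the others and 7 and 10 reached the vehicle range. The log2 fold change was -0.67 ± 0.34 (adjusted p = 0.513), and -0.42 ± 0.19 (0.566) without replicate 11. Gbp2 had 167 to 274 CPM with vehicle and 228, 198, 250.4, 149 and 151 in 7 to 11, with the lowest values in the libraries 6, 10 and 11, all high in neutrophil markers, while replicate 5, also high in them, had 215 (log2 -0.24 ± 0.17, adjusted p = 0.681). Gbp3 (-0.31 ± 0.15, 0.502), Gbp9 (-0.21 ± 0.24, 0.833), Irgm2 (-0.24 ± 0.11, 0.486), Tgtp1 (-0.18 ± 0.34, 0.911) and Igtp (-0.04 ± 0.13, 0.948) were not called, with the adjusted p after each log2 value. Gbp7 was the member with a positive value, 0.16 ± 0.21 (adjusted p = 0.854). Iigp1 had an error too wide to give a direction, -0.98 ± 1.01. The median log2 fold change over the members was -0.24.

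**Figure D5:**
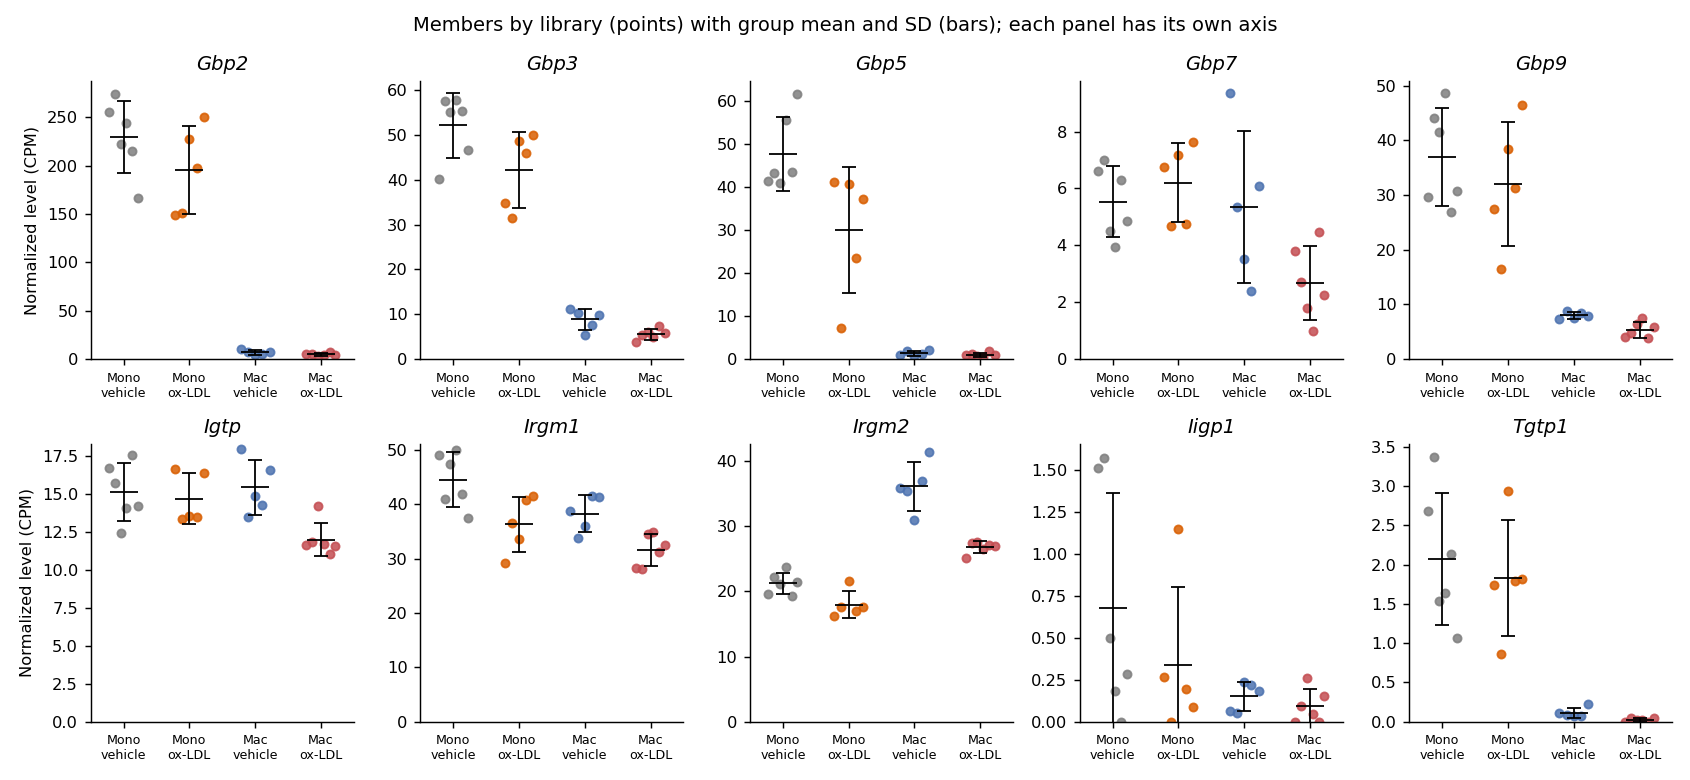
Normalized level (CPM, y axis, with its own scale from 0 in each panel) of the 10 members in each library of the 4 groups (x axis), with points for libraries and bars for the group mean with SD. The macrophage groups of Irgm2 do not overlap, nor do those of Tgtp1 at 0 to 10 counts, and Gbp5 shows 1 ox-LDL monocyte library at 7.27 CPM.

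Whether ox-LDL acted differently on monocytes and macrophages was tested as an interaction. It was called for 0 of the 10 members, against 11 of 17466 genes (0.063%; 62 with DESeq2 and 8 with limma voom). Of the members, 2 had an unadjusted edgeR p under 0.05, against 1261 of the 17466 genes. These members were Gbp7 at -1.13 ± 0.46 (log2, macrophages minus monocytes, adjusted p = 0.624) and Tgtp1 at -1.93 ± 0.70 (0.542). The value of Tgtp1 rests on few counts, 24 in all over the vehicle macrophage libraries and 6 over those with ox-LDL. For Irgm2 the difference was -0.16 ± 0.13 (adjusted p = 0.871), so its call in macrophages was not shown to set them apart from monocytes.

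Of 9 other genes of both families tested with ox-LDL in macrophages 3 fell, all of them IRGs. Of all genes tested, 1.38% were called lower. Gm5431 stood at 31.1 ± 1.77 CPM with vehicle and at 19.0 ± 1.06 with ox-LDL (log2 -0.70 ± 0.07, adjusted p = 8.72e-05). Ifi47 (Irgd) fell by 0.65 ± 0.12 (adjusted p = 0.0105) and Gm12250 (Irgb10) by 0.74 ± 0.16 (0.0259). In each of the 3, all ox-LDL libraries lay below all vehicle libraries, which held for 1.84% of all genes tested. The calls of Gm5431 and Ifi47 held in all 18 alternatives and that of Gm12250 in 13. Gvin1, a giant GTPase, was at -0.85 ± 0.22 (adjusted p = 0.0577), and Gbp8, Irgq, Irgc1, 9930111J21Rik1 and 9930111J21Rik2 were between -1.15 and -0.08 and not called. In monocytes 0 of 14 were called, with Gm12250 lowest at -0.75 ± 0.26 (adjusted p = 0.325) and Gbp8 highest at 0.13 ± 0.26.

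Between the cell types with vehicle, Gbp4 (log2 -7.12 ± 0.37), Gbp2b (-4.88 ± 0.32) and Gbp8 (-2.34 ± 0.33) were lower in macrophages, as the members Gbp2, Gbp3, Gbp5 and Gbp9 were. Gm5431 (2.95 ± 0.18), Irgq (1.77 ± 0.24) and Gvin1 (1.39 ± 0.24) were higher. Ifi47 and Gm12250 were not called with vehicle (adjusted p = 0.312 and 0.262).

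Upstream, Ifng itself was scarce. It had 39 counts over the 6 vehicle monocyte libraries and 32 over the 5 with ox-LDL, or 0.132 ± 0.141 and 0.140 ± 0.114 CPM. It had 0 counts in all 11 macrophage libraries, which allows up to 0.0137 CPM with vehicle and 0.0110 with ox-LDL at 3 counts over the group, for counting error only. Both receptor chains were present. Ifngr1 had 204 ± 29.8 CPM in vehicle monocytes and 389 ± 61.6 in vehicle macrophages (log2 0.86 ± 0.12, adjusted p = 3.74e-05), and Ifngr2 had 231 ± 13.7 and 227 ± 14.2. The edgeR test called 0 of 7 ligands and receptors with ox-LDL in macrophages. An unadjusted p under 0.05 was reached by 2, against 2062 of all 14543 genes. Ifngr1 was at -0.27 ± 0.12 (adjusted p = 0.316) and Ifngr2 at -0.12 ± 0.06 (0.364).

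Most of the 14 JAK-STAT and IRF genes listed, which are not limited to interferon-gamma signalling, were lower in macrophages than in monocytes. Irf1, an interferon-gamma induced activator of these GTPase genes, had 316 ± 28.5 CPM in vehicle monocytes and 53.0 ± 9.23 in vehicle macrophages (log2 -2.65 ± 0.14, adjusted p = 1.49e-09). Of the 14 JAK-STAT and IRF genes 12 were called lower and 1 higher with vehicle, against 35.1% and 28.5% of all genes. With ox-LDL in macrophages 4 of the 14 fell and 0 rose, where 1.38% of all genes were called lower. The 4 were Irf7 (log2 -1.09 ± 0.14, adjusted p = 0.00118), Stat2 (-0.49 ± 0.11, 0.0288), Irf9 (-0.49 ± 0.07, 0.00307) and Irf2 (-0.32 ± 0.06, 0.0212). The calls of Irf7 and Irf9 held in all 18 alternatives, that of Irf2 in 15 (adjusted p up to 0.0666) and that of Stat2 in 11 (up to 0.507). The last pair lost their calls in 1 fit over all 4 groups and without replicate B or E, and Stat2 also without C, D, H or L. Irf1 was at -0.43 ± 0.12 (adjusted p = 0.0899). The edgeR test called 0 of the 14 in monocytes, where 4 reached an unadjusted p under 0.05, against 1718 of all 16575 genes. In 1 of the 14, Irf7, every ox-LDL monocyte library (12.2 to 20.9 CPM) lay below every vehicle monocyte library (22.3 to 33.9 CPM). That held for 0.664% of all genes in monocytes. Irf1 was at -0.28 ± 0.12 (adjusted p = 0.425), and the most abundant, Irf8 and Jak1, at -0.14 ± 0.15 and 0.19 ± 0.16.

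Targets of type I interferon were followed beside the members. Of all genes tested with ox-LDL in macrophages, 1.38% were called lower. Of 18 type I interferon-stimulated genes 12 fell and 0 rose there, with a median log2 fold change of -0.91 against -0.46 over the 8 members. They were led by the RNA-binding Ifit3 (-2.15 ± 0.24, adjusted p = 6.34e-04), Ifit1 (-2.10 ± 0.42, 0.0203) and Ifit2 (-1.52 ± 0.25, 0.00559), and by Rtp4 (-1.51 ± 0.17, 6.34e-04). Of these, Ifit1 was not called without replicate E (adjusted p = 0.0584) or L (0.0534). The difference between these lists was not tested. Of 20 other interferon-gamma targets 3 fell and 1 rose. Those that fell were the Fc receptor gene Fcgr1 (-0.60 ± 0.13, adjusted p = 0.0322), the immunoproteasome subunit Psmb9 (-0.38 ± 0.08, 0.0271) and the peptide transporter Tap1 (-0.37 ± 0.09, 0.0415). Cd274, which encodes PD-L1, rose by 0.48 ± 0.09 (adjusted p = 0.0182). Of 18 alternatives, Fcgr1 and Psmb9 were called in 11 each (adjusted p up to 0.195 and 0.219), Tap1 in 8 (up to 0.506) and Cd274 in 16 (up to 0.502). Those calls were lost in 1 fit over all 4 groups and without single libraries, which were B, E, H, J, K or L for Fcgr1, A, B, D, E, K or L for Psmb9, E for Cd274, and any but B and H for Tap1. In monocytes 0 of 19 type I genes and 0 of 23 other targets were called by edgeR, with 6 and 1 at an unadjusted p under 0.05 and medians of -0.42 and -0.03. The most abundant of them, Bst2 (-0.21 ± 0.16), Rsad2 (-0.21 ± 0.15), Tapbp (-0.04 ± 0.13) and Psme2 (0.05 ± 0.18), were not called.

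Within a cell type the members varied together in part. Correlations were taken over 11 libraries of log2 CPM after subtraction of the group mean, as a description, since libraries share composition and depth. Among monocytes the 10 pairs of guanylate-binding proteins had a median Pearson r of 0.47, from 0.13 to 0.81, the highest being Gbp3 with Gbp9 (Spearman rho 0.87). The 6 pairs of IRGs with at least 1 CPM had a median of 0.03 and a lowest value of -0.51, for Igtp with Irgm2. Among macrophages Gbp2 and Gbp7 varied together (r = 0.87, rho = 0.89), and Gbp9 varied against Gbp7 (r = -0.78, rho = -0.75) and Gbp2 (r = -0.58). Igtp, Irgm1 and Irgm2 had r from 0.31 to 0.49.

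The median profile of the members was set against all other genes with at least 5 CPM. Among 9450 genes in monocytes the most alike were Dkk2 (r = 0.98, rho = 1.0), Sez6l (0.97), Prnp (0.97), Irf8 (0.97), Tapbpl (0.97), Tspan33 (0.96), 9930104L06Rik (0.95) and Cyb5r3 (0.95). Among 9103 genes in macrophages they were Adck5 (r = 0.93, rho = 0.87), Vgll4 (0.91), Casp6 (0.91), Cpsf2 (0.88), AI467606 (0.88), Casp8 (0.87), Thumpd1 (0.87) and Tdg (0.86). The lists share 0 genes. With this many genes and 11 points, high values arise readily.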

How the data were processed

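RNA was polyadenylated RNA made into libraries with a SMARTer low-input kit from 10 ng of total RNA, per the labels' protocols. Per the submitters' processing notes, the tools were STAR 2.7.9a and featureCounts 2.0.3 of Subread, with the build GRCm38. The strand setting, the treatment of reads with several matches and the annotation release are things not given in the sources used here, so reads of overlapping or near-identical genes could not be assigned. The deposited counts are whole numbers, not normalized, and the deposited TPM are scaled by gene length within each library by the authors.

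Each comparison was fitted with edgeR 4.0.16 under R 4.3.3, using TMM factors, filterByExpr, a 2-sided quasi-likelihood F test and Benjamini-Hochberg adjustment over all genes tested. A gene is called at an adjusted p under 0.05, and the standard error of a log2 fold change was derived from its F statistic. The fits were tested on simulated data. CPM use TMM factors over all 22 libraries, which is the scale of all levels not given in TPM. Each ox-LDL comparison used its 11 libraries, and the difference of effects used all 22. Alternatives were RLE factors, total counts, no filter on low counts, DESeq2 1.42.0, limma voom (limma 3.58.1), 1 fit over all groups and leaving out each library. Added after the data were seen were a covariate for library sets and fits without the monocyte libraries high in neutrophil or low in erythroid markers.

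The members and gene lists were chosen with earlier results of these data known. Named genes followed a rule. It took all members, other family genes averaging 1 CPM or more in a group, and the genes Ifng, Ifngr1, Ifngr2 and Irf1, and 1 gene that is not reported here. From each other list it took up to 4 called genes per ox-LDL comparison, or the 2 most abundant where none was called. It took the 8 genes most like the members in each cell type, and some genes that share sequence or exons with a member are named besides. Motifs were searched as letters in RefSeq promoter windows. Floors cover counting error only: PCR copies were not told apart by molecular identifiers.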

Additional observations from a re-analysis of the deposited data

Results flagged for a closer look

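Of 40 combinations of member and group, 4 had a library far from the others by Dixon's rule, where chance gives about 1 in 20 groups. Igtp in ox-LDL macrophages had 14.2 CPM in replicate I, above 11.1 to 11.8 in the other 5. Irgm2 in ox-LDL monocytes had 21.5 CPM in replicate 7, above 16.1 to 17.6 in the other 4, and replicate 7 is the ox-LDL library low in erythroid markers. The same replicate 7 held 1.15 CPM of Iigp1, above 0 to 0.269 in the other 4, and the vehicle replicates 1 and 2, also low in erythroid markers, held 1.51 and 1.57. Tgtp1 in vehicle macrophages had 0.226 CPM in replicate E, which is 10 counts, against 3 to 5 counts in the other 4.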

How the results depend on the processing

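No paired analysis was possible because the labels number the libraries differently in each group. The 10 members gave 0 calls with ox-LDL in monocytes and 0 for the difference of effects under every alternative run. In macrophages the count of members called with ox-LDL moved from 1 to 2 with total counts, 5 with DESeq2 and 5 with the library sets as a covariate, and ran from 1 to 2 with 1 library left out. Between the cell types 6 to 8 members were called with vehicle and 8 to 9 with ox-LDL with 1 library left out, against 8 in both. Values near 0 changed sign. In monocytes with ox-LDL these were, with total counts, Gabarap (-0.00293) and Psme2 (-0.00388), and with library sets 9930111J21Rik1 (0.033), 9930111J21Rik2 (0.11) and Gabarap (-0.00303). Without the libraries low in erythroid markers they were 9930111J21Rik1 (0.10), 9930111J21Rik2 (0.15) and Igtp (0.031), and without those high in neutrophil markers Tapbp (0.00113). With 1 library left out the ranges were -0.27 to 0.22 for 9930111J21Rik1, -0.24 to 0.23 for 9930111J21Rik2, -0.13 to 0.19 for Gabarap, -0.11 to 0.30 for Gbp8, -0.10 to 0.0094 for Igtp, -0.0413 to 0.18 for Psme2, -0.10 to 0.0705 for Ptpn1, -0.10 to 0.0229 for Tapbp and -0.42 to 0.0111 for Tgtp1. Between the cell types with vehicle Igtp was 0.0421 with no filter and -0.11 to 0.0408 with 1 library left out, and Gbp7 -0.38 to 0.0693. For the difference of effects Iigp1 was -0.11 with limma voom and -0.27 with library sets, and -0.26 to 1.70 with 1 library left out, and Irgm1 -0.0219 to 0.11. The cause of these changes was not tested. Depth limits Iigp1 and Tgtp1, which had at most 12 counts in a macrophage library.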

Other observations

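Partners of these GTPases at vacuoles and inflammasomes, such as the autophagy conjugation genes that place IRGs and guanylate-binding proteins on membranes, were not called with ox-LDL. With ox-LDL in macrophages 0 of 19 were called by edgeR, and 14 had a positive log2 fold change, with a median of 0.07. At an unadjusted edgeR p under 0.05 were 5, against 2062 of all 14543 genes. The difference of these partners from the members was not tested. The most abundant, Sqstm1 (p62) and Gabarap, were at 0.13 ± 0.06 (adjusted p = 0.344) and 0.14 ± 0.07 (0.394). In monocytes 0 of 19 were called (0 at an unadjusted p under 0.05), with Sqstm1 at 0.18 ± 0.13 and Gabarap at 0.05 ± 0.21. Of the 10 inhibitors of interferon signalling 0 were called with ox-LDL in either cell type. At an unadjusted edgeR p under 0.05 were 3 in macrophages and 2 in monocytes, against 2062 of 14543 and 1718 of 16575 genes. The phosphatase gene Ptpn1 was at 0.20 ± 0.06 (adjusted p = 0.119) in macrophages and -0.01 ± 0.16 in monocytes, and Ptpn6 (SHP-1) at -0.10 ± 0.07 and -0.11 ± 0.15.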
